A study of Mus musculus with 6 samples.

Results

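The solute carriers of the plasma membrane and organelles were followed in mouse liver. These genes carry symbols that begin with Slc and a number, and the mitochondrial carriers of the Slc25a family were set apart. A gene was a member when its probe reached a detection p under 0.01 on at least 2 of the 6 arrays, and the brightest probe stood for a gene with several. Of 310 such symbols, represented by 576 probes, 129 were members, against 8561 detected named genes in all. Of the members, 100 were detected on all 6 arrays and 29 on some of them, 15 further symbols were detected on 1 array, and 166 on none. The membership rule used detection and no difference between arms or times. Of the 129 symbols, 4 name proteins that are not carriers themselves: Slc7a6os, Slc4a1ap, and the scaffolds Slc9a3r1 and Slc9a3r2.

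Livers of C57BL/6J mice aged 18 weeks were compared in 3 arms. NOB mice ate a high-fat diet and received nobiletin, HFD mice ate the same kind of diet and received vehicle, and RC mice ate regulatory chow and are labelled as given vehicle. Nobiletin, a citrus flavone, or the vehicle was given by mouth every other day for 10 weeks, nobiletin at 200 mg/kg. The light-dark cycle was 12 h by 12 h, feeding was ad libitum, and livers were taken at zeitgeber time (ZT) 14, after lights off, and ZT2, after lights on. Each arm and time was 1 Illumina bead array of RNA pooled from 4 mice, so no group had a replicate. The labels used here state no sex. The 2 times of an arm therefore served as its replicates, and p-values measure the spread between these pooled arrays and times, not the spread between animals.

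Solute carriers are membrane proteins that move ions, sugars, amino acids, organic acids, bile acids, vitamins and metals across membranes, mostly down or coupled to a gradient. In hepatocytes they take up portal nutrients and bile acids from blood, return glucose and other products to it, and pass solutes between the cytosol and lysosomes, the Golgi apparatus and the endoplasmic reticulum. Some form obligate pairs with a partner subunit, and some are abundant in cells other than hepatocytes.

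Levels are log2 values after background correction and quantile normalization, differences are log2 differences estimated over both times, and values are given for ZT14 and then ZT2 within each arm. The levels of different genes come from different probes and were not compared with each other. The arrays detected 28.1% to 32% of 45281 probes. The members detected per array numbered 112 and 121 in NOB, 117 and 125 in HFD, and 109 and 116 in RC. Of 10 hepatocyte markers, 8 were measured, and their summed level lay between 16.01 and 16.18 on every array. Such a sum follows the brightest markers, and the probe of the marker Alb was not above background in NOB or RC at ZT14. For HFD minus RC, 7 of the 8 were below 0 and 1 of them fell, Cps1, the entry enzyme of the urea cycle, by 1.41 on the log2 scale (limma, adjusted p = 0.0114). The summed level of the 6 measured of 8 skeletal muscle markers was 7.51 and 7.44 in NOB, 9.23 and 7.69 in HFD, and 11.57 and 7.69 in RC, so the RC array at ZT14 stood apart, with HFD at ZT14 next. Of the other lists, the summed level of the 7 measured stellate cell markers was 11.90 and 11.93 in NOB, 12.09 and 12.35 in HFD, and 11.64 and 11.51 in RC. That of the 4 measured neutrophil and lymphocyte markers was 7.85 and 7.13 in NOB, 8.46 and 8.70 in HFD, and 6.99 and 7.70 in RC, so both lists were highest in HFD. Of 6 cholangiocyte markers 1 was measured, Sox9, at 7.25 and 7.12 in NOB, 8.43 and 7.76 in HFD, and 8.55 and 8.74 in RC. The part of these cells in the differences of the carriers was not tested. In bulk liver RNA, fewer cells of a type and less RNA per cell cannot be told apart.

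The comparison of HFD with RC asked which carriers followed the diet. Under HFD, 11 members rose and 8 fell in limma's test (adjusted p under 0.05), which is 14.7% of 129, against 6.82% of all genes called in either direction, 4.49% higher and 2.34% lower. The carriers that rose were for dicarboxylates, sulfate, bicarbonate, bile acids, creatine, zinc and calcium, together with Slc17a8, Slc17a4 and Slc15a3. Of the members that rose, Slc13a4, Slc24a3, Slc39a5 and Slc51b were not detected on either RC array. They passed the detection filter through mice on the high-fat diet alone, which favours a rise over RC. Those that fell were Slc13a2, the organic anion transporters Slc22a28 and Slc22a30 and the lysosomal Slc46a3. The amino acid or peptide carriers Slc7a2, Slc43a1, Slc38a4 and Slc15a4 also fell. Slc13a2 passed the detection filter only with its RC arrays, which favours a fall from RC. At ZT14 and at ZT2 alike, each of the 19 differed in the direction of its call. The 2 times served as the replicates of the test, so a call favours such agreement, and nothing is read from it. The median difference was -0.05 over the members and -0.0038 over all genes. With arrays scaled to their medians in place of quantile normalization, 23 members rose and 3 fell, and the median of all genes moved to 0.25, so the balance of rises and falls depends on the scaling; each of the 19 kept its sign. The members called under median scaling were 20.2% of 129, near the 18.8% of all genes called there. With the authors' processed values, 4.65% of the members and 2.78% of all genes were called. Of the 19 calls, 6 held there, 7 held without the time term and 3 held with no detection filter. Without the RC array at ZT14, 5 rose and 2 fell; without HFD at ZT14, 1 and 1; and without HFD at ZT2, 2 and 1. Of the 19 calls, Slc17a8 and Slc13a2 alone held without HFD at ZT14, and these and Slc13a4 held without HFD at ZT2. Without RC at ZT14, 6 held, those 3 with Slc17a4, Slc7a2 and Slc24a3. Without RC at ZT2, 12 held, and without either NOB array 14 held.

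**Figure D1:**
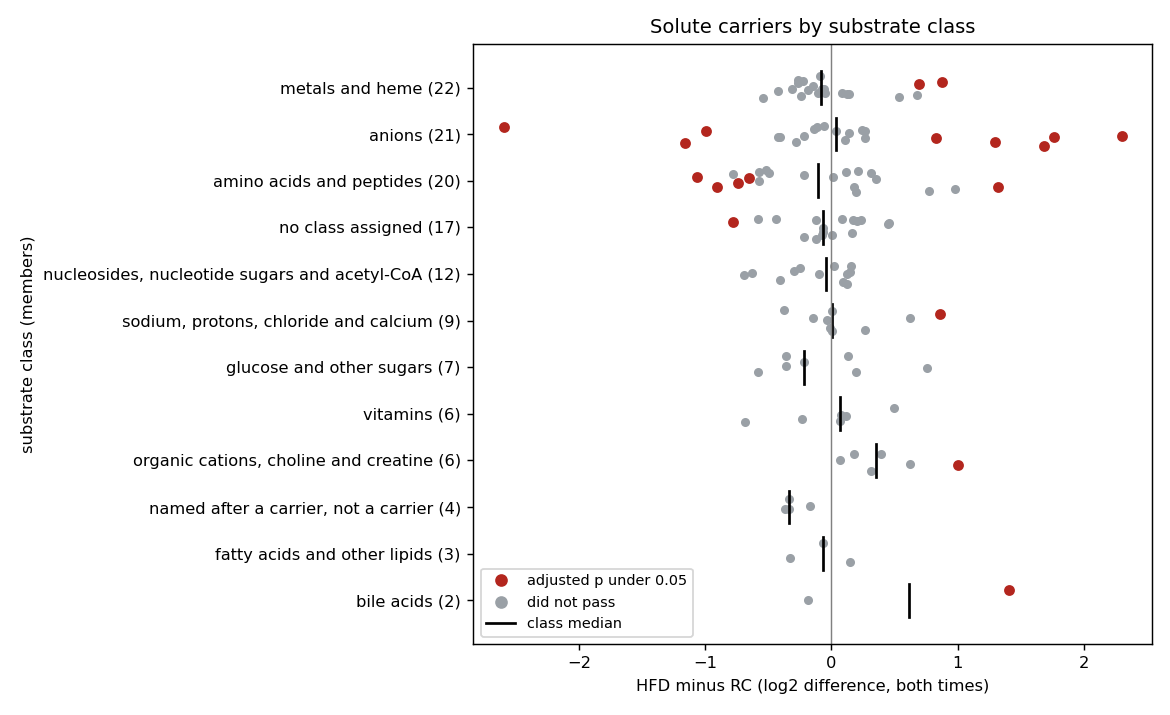
Differences between HFD and RC (log2, over both times, horizontal axis) for each of the 129 members, grouped by substrate class with the number of members in parentheses. Red points passed an adjusted p of 0.05, grey points did not, vertical bars are class medians, and the height of a point within its class carries no value. Anions hold the highest difference, 2.30, of Slc17a8, and also the lowest, of Slc13a2, for which HFD was detected on 1 of 2 arrays.

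Some members crossed the background between arms. The membership rule used the same detection calls, so the counts are a description. Neither RC array, but at least 1 HFD array, was above background for 8 members, Slc13a4, Slc24a3, Slc37a3, Slc39a5, Slc39a8, Slc51b, Slc5a12 and Slc7a7. These are 6.2% of the members, near the 5.48% of all genes with this pattern. The reverse held for 3 members, Slc45a2, Slc4a3 and Slc52a3, 2.33% against 1.4% of all genes. A single pair of arrays has no replicate check. At least 1.5-fold apart, 16 of the 129 members were higher in HFD than in RC at ZT14, near the 11.8% of all genes, and 20 were lower, against 7.35%. At ZT2, 14 were higher, against 7.94%, and 15 lower, against 5.53%. The same way at both times, 9 were higher and 9 lower, against 4.82% and 2.49% of all genes.

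Among the substrate classes, anion carriers had 5 members that rose and 3 that fell of 21, and amino acid and peptide carriers had 1 that rose and 4 that fell of 20. Of 22 metal and heme carriers, 2 rose and 0 fell. The shares called in either direction were 38.1% for anions, 25% for amino acids and peptides and 9.09% for metals and heme. Of all genes 6.82% were called, so the metal and heme carriers were near that share. No glucose or other sugar carrier of 7, no fatty acid carrier of 3, no vitamin carrier of 6, and no carrier of nucleosides, nucleotide sugars or acetyl-CoA of 12 passed for this contrast. The class medians ran between -0.22 for sugars and 0.35 for the 6 carriers of organic cations, choline and creatine, apart from the 2 bile acid members with 0.61 and the 4 non-carriers with -0.34. All 6 organic cation, choline and creatine carriers had differences above 0, and 1 of them, Slc6a8, passed.

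Among the anion carriers, Slc17a8, the vesicular glutamate transporter known as VGLUT3, showed the highest difference between HFD and RC. Its levels were 8.33 and 7.95 in NOB, 8.18 and 8.25 in HFD and 6.19 and 5.64 in RC. All 4 arrays of mice on the high-fat diet lay above both RC arrays. Slc17a8 rose in HFD relative to RC by 2.30 ± 0.18 (SE, adjusted p = 0.00304), or 4.93-fold, and in NOB relative to RC by 2.23 ± 0.18 (SE, adjusted p = 0.00595). It passed for HFD minus RC under all 15 alternative settings, including each array left out in turn. NOB minus HFD was -0.08 ± 0.18 (SE, adjusted p = 0.955).

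Slc13a2, a sodium-coupled carrier of succinate, citrate and other dicarboxylates, was detected on both RC arrays and 1 HFD array. Its levels were 4.25 and 4.49 in NOB (neither above background), 4.33 and 4.96 in HFD (the ZT14 array not above background) and 6.97 and 7.51 in RC. Both RC arrays were high, and the others were at or below background, except HFD at ZT2, which was detected near it. Slc13a2 fell in HFD, with a fitted difference of -2.59 (SE 0.16, adjusted p = 0.00105) that includes the HFD array below background. With values below background set to the lowest detected level of their array, the difference was -2.24. It was at least 4.73-fold lower in NOB than in RC, where the fitted difference, -2.87 (limma, adjusted p = 0.00146), uses the NOB values below background. The other dicarboxylate carrier of the family, Slc13a3, was 6.51 and 6.55 in NOB, 7.26 and 6.89 in HFD and 5.69 and 5.87 in RC, and here both HFD arrays were the highest and both RC arrays the lowest. Slc13a3 rose in HFD by 1.30 ± 0.18 (SE, adjusted p = 0.0115), 2.46-fold. NOB lay between, at -0.55 ± 0.18 (SE, adjusted p = 0.417) against HFD. The fall of Slc13a2 passed without each of the arrays in turn. Without its RC arrays Slc13a2 would not have passed the detection filter, which favours a high RC value. Its differences from RC are read with that limit, and with detection required on all 6 arrays it is not measured.

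Slc13a4, a sodium-sulfate cotransporter, was detected on the HFD arrays alone. Its levels were 4.90 and 4.53 in NOB (neither above background), 6.32 and 5.78 in HFD and 4.40 and 4.16 in RC (neither above background). The 2 HFD arrays stood above all others. It became a member through these 2 arrays alone, so the filter favours a high HFD value, and its differences from HFD are read with that limit; with detection required on all 6 arrays it is not measured. In HFD it was at least 1.97-fold higher than in RC. The fitted difference of Slc13a4, 1.77 (limma, adjusted p = 0.00343), uses the RC values below background, and with the same floor as for Slc13a2 it was 0.98. In NOB Slc13a4 was at least 2.08-fold lower than in HFD, and it was not above background on any NOB or RC array. The fitted difference there, -1.33 (limma, adjusted p = 0.0332), uses the NOB values below background. Slc26a1, another carrier of sulfate and oxalate, had 7.63 and 7.20 in NOB, 7.19 and 6.99 in HFD and 7.20 and 7.25 in RC, and HFD minus RC was -0.14 ± 0.17 (SE, adjusted p = 0.664); the HFD arrays lay just below RC, and the difference did not pass.

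Slc17a4, an organic anion transporter of the same family as Slc17a8, had 7.35 and 7.62 in NOB, 7.60 and 7.71 in HFD and 5.55 and 6.39 in RC. The RC arrays were lowest, and the 4 arrays of the high-fat diet lay close together. It rose in HFD by 1.68 ± 0.20 (SE, adjusted p = 0.00911) and in NOB relative to RC by 1.51 ± 0.20 (SE, adjusted p = 0.0339). The family members Slc17a2, Slc17a3 and Slc17a5 did not pass, with HFD minus RC of -0.28, -0.42 and 0.11. Slc4a4, a sodium-bicarbonate cotransporter, had 8.35 and 8.85 in NOB, 8.45 and 9.33 in HFD and 7.67 and 8.45 in RC. HFD was above RC at each time, but HFD at ZT14 and RC at ZT2 were level, so the arms met. It rose in HFD by 0.83 ± 0.16 (SE, adjusted p = 0.0315). The anion exchangers Slc4a2 and Slc4a3 differed by 0.04 and -0.11 and did not pass.

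Slc22a28 and Slc22a30, members of the organic anion transporter family, fell. Slc22a28 had 6.87 and 7.84 in NOB, 6.65 and 7.01 in HFD and 7.94 and 8.04 in RC, and Slc22a30 had 7.28 and 8.21 in NOB, 7.16 and 7.57 in HFD and 8.30 and 8.42 in RC. Both HFD arrays lay below both RC arrays for each gene. NOB lay close to RC at ZT2, but close to HFD and well below RC at ZT14. The falls in HFD were -1.16 ± 0.22 (SE, adjusted p = 0.0314) and -0.99 ± 0.21 (SE, adjusted p = 0.0434). These genes are close paralogs on chromosome 19, and whether each probe reads the other's transcript was not tested. Slc22a7, the liver organic anion transporter OAT2, had 6.35 and 6.31 in NOB, 6.22 and 5.86 in HFD and 6.37 and 6.54 in RC and did not pass, with -0.41 ± 0.17 (SE, adjusted p = 0.202) for HFD minus RC.

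Of the bile acid carriers, Slc51b, the beta subunit of the basolateral organic solute transporter, was detected only in mice on the high-fat diet. Its levels were 5.72 and 5.68 in NOB, 6.07 and 5.58 in HFD and 4.33 and 4.50 in RC (neither above background). All 4 arrays of HFD and NOB were above background, and neither RC array was. Slc51b was at least 1.68-fold higher in HFD than in RC and at least 1.54-fold higher in NOB than in RC. The fitted differences, 1.41 (limma, adjusted p = 0.0114) and 1.29 (adjusted p = 0.0407), use the RC values below background. With the same floor as for Slc13a2 they were 0.75 and 0.62. Slc51b passed the detection filter through the arms on the high-fat diet alone. The filter therefore favours high values there, and the differences of Slc51b from RC are read with that limit. Its partner, the alpha subunit Slc51a, was not detected on any array. Slc10a1, the sodium-coupled uptake carrier NTCP, had 5.95 and 6.04 in NOB, 5.63 and 5.42 in HFD and 5.48 and 5.94 in RC, and HFD minus RC was -0.18 ± 0.19 (SE, adjusted p = 0.603), with overlapping arms. The probe of Slc10a1 was dim on these arrays, which limits what it can show.

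Start regions are shown for Slc51b, detected only in the arms on the high-fat diet, and for Slc17a8, the member with the highest difference between HFD and RC. They come from RefSeq, build GRCm38.p6, 250 bases before to 50 after the start, 5′ to 3′ along the gene. Capitals mark the letters of the motifs found. Slc51b (chr9:65422724-65423023, minus strand) holds the nuclear receptor half-site AGGTCA at base 48 and the STAT letters TTCNNNGAA at base 186. Slc17a8 (chr10:89621200-89621499, minus strand, 1 of 2 listed starts) holds the D-box letters TTATGNAA at base 23, read on the other strand.
Slc51b: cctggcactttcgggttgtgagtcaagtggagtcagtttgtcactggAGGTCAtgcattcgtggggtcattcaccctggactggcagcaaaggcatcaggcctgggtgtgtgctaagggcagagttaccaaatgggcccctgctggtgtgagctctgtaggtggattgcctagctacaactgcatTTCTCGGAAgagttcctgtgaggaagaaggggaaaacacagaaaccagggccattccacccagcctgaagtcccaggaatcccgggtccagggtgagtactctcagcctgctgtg
Slc17a8: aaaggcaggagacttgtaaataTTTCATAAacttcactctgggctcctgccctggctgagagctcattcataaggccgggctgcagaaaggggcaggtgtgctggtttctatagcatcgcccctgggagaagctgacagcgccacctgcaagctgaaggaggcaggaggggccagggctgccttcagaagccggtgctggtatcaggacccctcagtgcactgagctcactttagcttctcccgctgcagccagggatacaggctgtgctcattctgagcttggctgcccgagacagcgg
Both strands of 300 bases were searched for CACGTG (E-box), TTATGNAA (D-box), AGGTCA, its inverted repeat and direct repeat 1 base apart, TTCNNNGAA and TGATGNAA (amino acid response core); both repeats contain AGGTCA. Of the 19 members called for HFD minus RC, 15 had a promoter in the table. AGGTCA stood in 3 of these 15 and in 16% of 27025 promoters, TTCNNNGAA in 2 and in 8.47%, CACGTG in 2 and in 7.24%, and TTATGNAA in 1 and in 3.52%. TGATGNAA stood in 0 of the 15 and in 4.06% of all promoters. The inverted repeat stood in 0 of the 15 and in 0.0111% of all, and the direct repeat in 0 and in 0.0444%. A match describes letters in the window only.

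**Figure D2:**
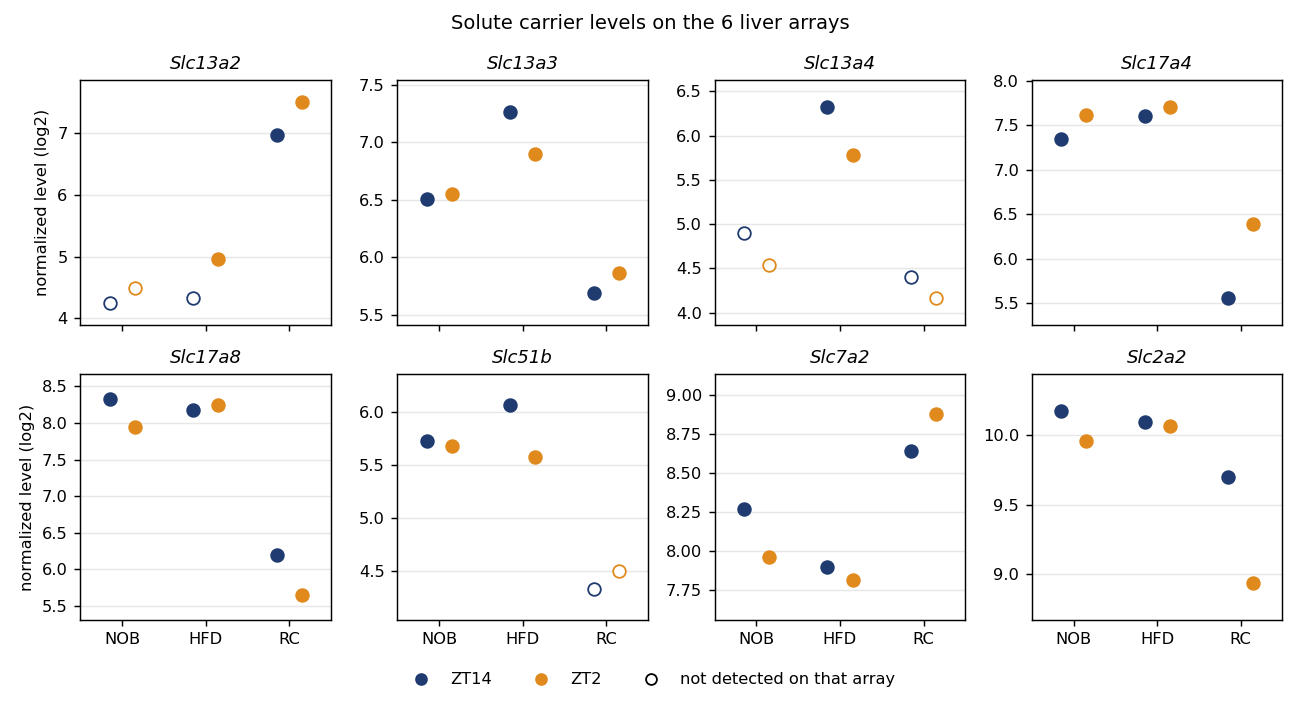
Normalized levels (log2, vertical axis, a separate scale in each panel) of 8 solute carriers on the 6 arrays, by arm, with ZT14 in blue and ZT2 in orange; open points were not above background. Slc13a2 is high in RC alone, Slc13a4 is detected in HFD alone, and Slc17a8, Slc17a4 and Slc51b are higher in NOB and HFD than in RC.

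Among the amino acid carriers, 4 fell in HFD. Slc7a2, a carrier of arginine, lysine and ornithine, had 8.27 and 7.97 in NOB, 7.90 and 7.82 in HFD and 8.64 and 8.88 in RC. Both RC arrays were above the other 4, and the fall in HFD was -0.90 ± 0.17 (SE, adjusted p = 0.0324). Its other detected probes fell by 1.31 and 1.03. Slc43a1, the neutral amino acid carrier LAT3, had 5.20 and 5.56 in NOB, 5.32 and 5.12 in HFD and 6.56 and 6.01 in RC, again with RC highest, and fell by 1.07 ± 0.22 (SE, adjusted p = 0.0431). Slc38a4, a sodium-coupled carrier of neutral amino acids, had 8.15 and 7.72 in NOB, 7.56 and 7.60 in HFD and 8.35 and 8.28 in RC and fell by 0.74 ± 0.17 (SE, adjusted p = 0.0493), a call lost when any array was left out.

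Other sodium-coupled amino acid carriers of liver did not pass. Slc38a2 had 8.63 and 9.40 in NOB, 8.56 and 9.02 in HFD and 8.98 and 9.74 in RC, with HFD minus RC of -0.57 ± 0.15 (SE, adjusted p = 0.0779). Slc38a3 differed by -0.58 ± 0.16 (SE, adjusted p = 0.0832), and Slc1a2, the glutamate transporter GLT-1, had 9.69 and 9.73 in NOB, 9.16 and 9.12 in HFD and 9.85 and 9.45 in RC and differed by -0.52 ± 0.16 (SE, adjusted p = 0.116). For Slc1a2 both HFD arrays lay below both RC arrays and NOB lay near RC. Slc1a4, a neutral amino acid exchanger, had 4.48 and 4.79 in NOB (neither above background), 6.07 and 5.95 in HFD and 4.47 and 5.59 in RC (the ZT14 array not above background). Only HFD was detected at both times. In NOB it was at least 2.02-fold lower than in HFD. The fitted difference, -1.38 (limma, adjusted p = 0.197), uses the NOB values below background and did not pass. Without its HFD arrays Slc1a4 would not have passed the detection filter. The filter therefore favours a high HFD value, and the differences of Slc1a4 from HFD are read with that limit.

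The lysosomal peptide and histidine carriers Slc15a3 and Slc15a4 moved in opposite directions. Slc15a3 had 6.98 and 6.67 in NOB, 6.96 and 7.53 in HFD and 5.44 and 6.40 in RC, and Slc15a4 had 7.89 and 7.74 in NOB, 7.31 and 7.03 in HFD and 7.93 and 7.73 in RC. Slc15a3 rose in HFD by 1.32 ± 0.29 (SE, adjusted p = 0.0454), whereas Slc15a4 fell by 0.66 ± 0.14 (SE, adjusted p = 0.0444) and lost the call when any array was left out and with the mean of its probes. The other probe of Slc15a4, detected on all 6 arrays, differed by -0.39 for HFD minus RC and by 0.21 for NOB minus HFD. For both genes the HFD and RC arrays did not overlap. For Slc15a4 the NOB arrays lay near RC, and NOB minus HFD was 0.64 ± 0.14 (SE, adjusted p = 0.236) with the brighter probe. The Slc15a3 call was lost with the authors' processed values, no detection filter, the mean of the probes and no time term. It was also lost without HFD at ZT14, HFD at ZT2 or RC at ZT14. Slc15a3 is known from macrophages. The summed level of the 9 measured of 14 Kupffer cell and macrophage markers was 11.85 and 11.59 in NOB, 11.80 and 11.93 in HFD, and 10.76 and 11.27 in RC, and 3 of the 9 rose in HFD; Cd68 and Itgax did not pass the detection filter. The part of these cells in the Slc15a3 difference was not tested.

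Among the glucose carriers, Slc2a2 is the low-affinity hepatocyte transporter GLUT2 and Slc2a1 is GLUT1, the transporter found in most cells. Slc2a2 had 10.18 and 9.96 in NOB, 10.09 and 10.07 in HFD and 9.70 and 8.94 in RC. The RC array at ZT2 was the lowest, so HFD minus RC was 0.39 at ZT14 and 1.13 at ZT2, and the estimate over both times, 0.76 ± 0.20 (SE, adjusted p = 0.0759), did not pass. Slc2a1 had 6.41 and 6.55 in NOB, 6.89 and 6.78 in HFD and 7.43 and 7.41 in RC, in the order RC, HFD and NOB from high to low with no overlap. Slc2a1 fell in NOB relative to RC by 0.94 ± 0.15 (SE, adjusted p = 0.0439), and HFD minus RC, -0.59 ± 0.15 (SE, adjusted p = 0.0641), did not pass. The call in NOB was lost when any array was left out. Slc37a4, the glucose-6-phosphate carrier of the endoplasmic reticulum, had 7.30 and 6.75 in NOB, 7.07 and 6.49 in HFD and 7.43 and 6.56 in RC and an HFD minus RC of -0.22 ± 0.15 (SE, adjusted p = 0.442).

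None of the 3 fatty acid carriers passed. Slc27a2, which takes up and activates long-chain fatty acids, had 12.54 and 12.30 in NOB, 12.32 and 12.51 in HFD and 12.42 and 12.11 in RC. Slc27a5, which also joins bile acids to coenzyme A, had 12.40 and 12.72 in NOB, 12.22 and 12.27 in HFD and 12.63 and 12.51 in RC. Slc27a4 lay between 5.19 and 5.46 on the arrays. HFD minus RC was 0.15 ± 0.17 (SE, adjusted p = 0.64) for Slc27a2 and -0.32 ± 0.16 (SE, adjusted p = 0.275) for Slc27a5.

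Of the metal carriers, the zinc carriers of the Slc39 family gave all the calls. Slc39a11 had 8.30 and 8.55 in NOB, 8.86 and 8.85 in HFD and 7.97 and 8.34 in RC and rose in HFD by 0.70 ± 0.16 (SE, adjusted p = 0.049), a call lost when any array was left out. Slc39a5 had 5.09 and 4.45 in NOB (the ZT2 array not above background), 5.46 and 5.17 in HFD and 4.40 and 4.48 in RC (neither above background). Both HFD arrays were detected and neither RC array was, so the rise was at least 1.18-fold. The fitted difference, 0.88 (limma, adjusted p = 0.049), uses the RC values below background, and with the same floor as for Slc13a2 it was 0.24. Slc39a5 passed the filter without an RC array, so its rise is read with that limit. The call was lost with normexp, median scaling on detected genes, the authors' processed values, no detection filter and no time term. It was also lost without HFD at ZT14, HFD at ZT2 or RC at ZT14. With the mean of the probes it was lost too. Slc39a5 has no other detected probe, so that setting changed other genes and not its own value. Slc39a4 had 8.61 and 9.11 in NOB, 9.66 and 9.76 in HFD and 9.99 and 9.96 in RC, with both NOB arrays below all others. It fell in NOB relative to RC by 1.11 ± 0.17 (SE, adjusted p = 0.045), while NOB minus HFD was -0.85 ± 0.17 (SE, adjusted p = 0.204). Its other probe, on 5 arrays, differed by -0.49 for NOB minus RC, and the mean of the probes did not pass. Slc39a14, a zinc, iron and manganese importer, was detected on 5 arrays and differed by -0.14 between HFD and RC.

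The iron carriers did not pass. Slc40a1, the iron exporter ferroportin, had 11.49 and 10.96 in NOB, 10.80 and 11.23 in HFD and 10.22 and 10.74 in RC, with HFD minus RC of 0.53 ± 0.26 (SE, adjusted p = 0.27). Both HFD arrays lay above both RC arrays, but HFD at ZT14, 10.80, lay just above RC at ZT2, 10.74. Slc11a1, the metal carrier of macrophage phagosomes, had 9.45 and 9.18 in NOB, 9.41 and 9.55 in HFD and 8.58 and 9.02 in RC; both RC arrays were the lowest, and HFD minus RC was 0.68 ± 0.19 (SE, adjusted p = 0.0904). The macrophage marker sums given above were also lowest in RC, and their part here was not tested. Slc11a2, the divalent metal carrier DMT1, stayed between 8.09 and 8.32. Slc30a10, a manganese exporter, ranged between 7.36 and 8.18, both ends of this range in RC.

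Of the remaining classes, Slc6a8, the creatine transporter, had 6.54 and 5.81 in NOB, 6.65 and 6.77 in HFD and 5.93 and 5.48 in RC and rose in HFD by 1.01 ± 0.22 (SE, adjusted p = 0.0452). The NOB array at ZT2 fell within the RC range. The Slc6a8 call was lost with normexp, median scaling on detected genes, the authors' processed values, no detection filter and no time term. It was also lost when any HFD or RC array was left out. Slc24a3, a sodium, calcium and potassium exchanger, had 4.96 and 5.16 in NOB (the ZT14 array not above background), 5.44 and 5.80 in HFD and 4.91 and 4.61 in RC (neither above background). It was at least 1.46-fold higher in HFD than in RC. The fitted difference, 0.86 (limma, adjusted p = 0.0485), uses the RC values below background, and with the same floor as for Slc13a2 it was 0.55. Slc24a3 passed the filter without an RC array, so its rise is read with that limit. The call was lost with normexp, median scaling on detected genes, the authors' processed values, no detection filter and no time term. It was also lost when any array but RC at ZT14 was left out. With the mean of the probes it was lost too. Slc24a3 has no other detected probe, so that setting changed other genes and not its own value. Slc46a3, a lysosomal carrier with no class here, had 10.49 and 10.11 in NOB, 9.86 and 9.50 in HFD and 10.88 and 10.04 in RC. It fell in HFD by 0.78 ± 0.17 (SE, adjusted p = 0.0469), a call lost when any array but RC at ZT2 was left out. The call was also lost with median scaling, the authors' processed values, no detection filter and no time term. NOB minus HFD was 0.62 ± 0.17 (SE, adjusted p = 0.367). Slc17a9, the vesicular nucleotide transporter, had 5.03 and 4.997 in NOB (the ZT14 array not above background), 5.37 and 5.42 in HFD and 6.12 and 5.93 in RC. It fell in NOB relative to RC by 1.01 ± 0.15 (SE, adjusted p = 0.04), with RC highest; NOB was detected at ZT2 alone, and with the same floor as for Slc13a2 the difference was -0.98. The 12 carriers of nucleosides, nucleotide sugars and acetyl-CoA, most of them Golgi carriers of the Slc35 family, had a median range over the arrays of 0.44, with values below background at the lowest detected level of their array, and 11 were detected on all 6. The 9 carriers of sodium, protons, chloride and calcium had a median range of 0.41. Among vitamin carriers, the thiamine carrier Slc19a2 had 9.13 and 9.97 in NOB, 9.10 and 9.55 in HFD and 9.78 and 10.23 in RC, and HFD minus RC was -0.68 ± 0.16 (SE, adjusted p = 0.0583), which did not pass.

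The comparison of NOB with HFD asked what nobiletin changed on the high-fat diet. No member rose and 1 fell, Slc13a4, which passed the filter through the HFD arrays alone, against 0.035% of all genes higher, 0.128% lower and 0.164% in either direction. An unadjusted limma p under 0.05 was seen in 22 of the 129 members. The share of all genes at that threshold was not counted, so nothing is read from this count. At 1.5-fold the same way at both times, 1 member was higher, Slc46a3, against 0.491% of all genes. At that threshold 3 were lower, Slc13a4, Slc1a4 and Slc39a4, against 1.37%. Slc13a4 and Slc1a4 passed the filter only with their HFD arrays, which favours a value below HFD in NOB. The median difference was 0.06 for the members and 0.0054 for all genes. At ZT14, 5 of the 129 members were at least 1.5-fold higher in NOB than in HFD, against 2.36% of all genes, and 5 were lower, near the 3.83% of all genes. At ZT2, 9 were higher and 11 lower, against 2.51% and 4.15%. By class, the median of NOB minus HFD was 0.19 for amino acid and peptide carriers, 0.09 for anion carriers, 0.09 for metal carriers and -0.25 for carriers of organic cations, choline and creatine, and no class had a call except anions. The fall of Slc13a4 did not pass without NOB at ZT14, without NOB at ZT2, without HFD at ZT14 or without HFD at ZT2.

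In NOB relative to RC, 3 members rose, Slc17a8, Slc17a4 and Slc51b, and 4 fell, Slc13a2, Slc2a1, Slc39a4 and Slc17a9, which is 5.43% of 129, against 0.526% of all genes higher, 0.467% lower and 0.993% in either direction. At least 1.5-fold the same way at both times, 5 members were higher in NOB than in RC and 4 lower, against 1.89% and 1.44% of all genes. At ZT14 alone, 14 were higher and 12 lower, against 9.02% and 6.13%, and at ZT2, 8 were higher and 7 lower, against 3.94% and 3.57%. Of these 7 calls, Slc13a2 held whichever array was left out, Slc17a8 was lost without NOB at ZT14, Slc2a1 was lost without any one array, and Slc17a4, Slc51b, Slc39a4 and Slc17a9 held only without RC at ZT2. The contrasts of the arms share arrays, so their values stand side by side and no agreement between them is counted. Slc38a7, a glutamine carrier of lysosomes, differed by 0.73 ± 0.16 (SE, adjusted p = 0.0999) for NOB minus RC and did not pass.

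**Figure D3:**
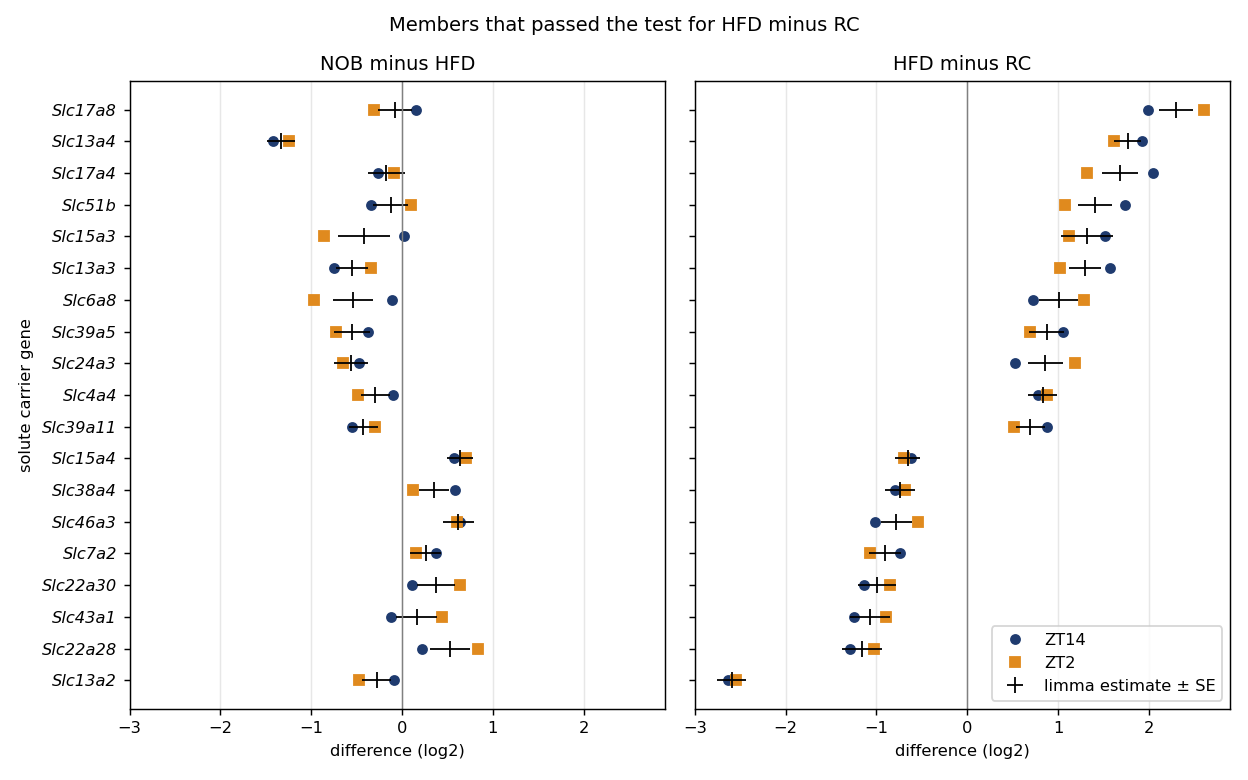
NOB minus HFD (left) and HFD minus RC (right), log2 differences, for the 19 members that passed for HFD minus RC; circles are ZT14, squares ZT2, and vertical ticks with horizontal bars the limma estimate ± SE. On the right no point crosses 0, which the test favours because the times served as its replicates. On the left Slc13a4 lies lowest, with neither NOB array above background, so that its fall there is at least 2.08-fold.

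Between the times of day, ZT14 against ZT2, 0 of the 129 members passed, against 0.0234% of all genes. An unadjusted limma p under 0.05 was seen in 21 members, with no share of all genes counted at that threshold, so nothing is read from it. No member was 1.5-fold apart the same way in all 3 arms, against 0.28% of all genes higher and 0.257% lower at ZT14. Within an arm, with no test, 7 members were at least 1.5-fold higher at ZT14 than at ZT2 and 8 lower in NOB, against 3.84% and 3.31% of all genes. In HFD 1 was higher and 5 lower, against 3.07% and 2.37%, and in RC 9 were higher and 10 lower, against 4.03% and 5.42%. The 8 members with the smallest unadjusted p were looked at after their values were seen, and their adjusted p ran between 0.148 and 0.217. For Slc4a4 the difference was -0.72 ± 0.13 (SE, adjusted p = 0.148), with -0.50 in NOB, -0.88 in HFD and -0.78 in RC. Slc38a2 was also lower at ZT14 in each arm, with differences of -0.77 in NOB, -0.46 in HFD and -0.76 in RC. Over the arms its brightest probe differed by -0.66, another probe detected on all 6 arrays by -0.27, and a probe detected on 2 arrays by 0.12. Slc37a4 was higher at ZT14 in each arm, by 0.55 in NOB, 0.58 in HFD and 0.87 in RC. The remaining 5 were Slc35e3, the glycine carrier Slc6a9 and the scaffold Slc9a3r1, higher at ZT14 in the 3 arms, and Slc19a2 and the mitochondrial sodium-calcium exchanger Slc8b1, lower.

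**Figure D4:**
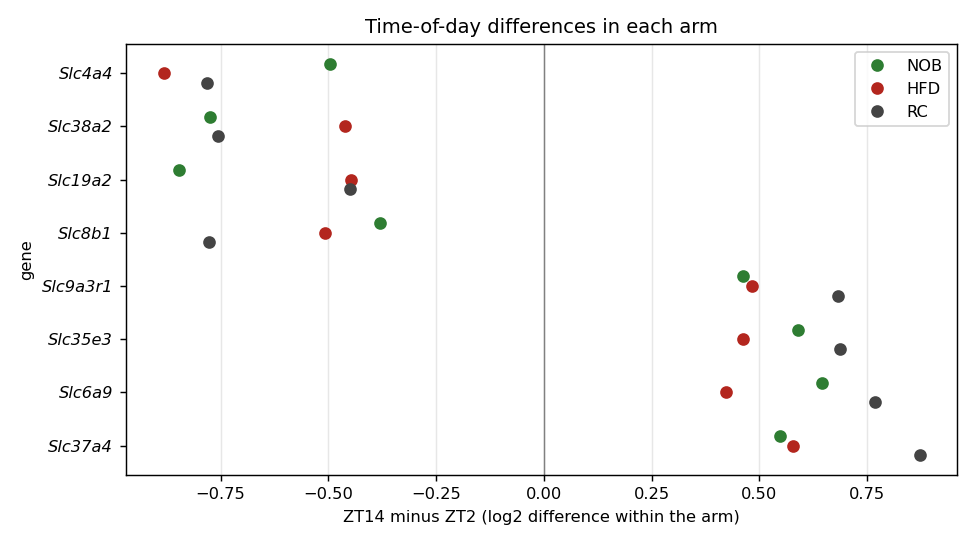
ZT14 minus ZT2 (log2, horizontal axis) within each arm for the 8 members with the smallest unadjusted p, NOB in green, HFD in red and RC in grey, 1 pooled array per arm and time. Each gene has its 3 points on the same side of 0, and no gene passed the adjusted test.

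Over the 6 arrays, with values below background set to the lowest detected level of their array, the members' levels spanned a median of 0.63 on the log2 scale, against 0.50 for all genes. The range was 0.12 for Slc22a18, the narrowest, 2.60 for Slc13a2 and 2.69 for Slc17a8, the widest. A range of at least 2-fold was seen in 26 members, 20.2%, against 11.5% of all genes. Beside them, 4 of the 30 measured mitochondrial Slc25a carriers rose in HFD and 0 fell, which is 13.3% against 6.82% of all genes called in either direction. Of 5 measured Slco transporters, Slco2a1, the prostaglandin carrier, fell in HFD by 1.63 on the log2 scale (adjusted p = 0.00453), and the others did not pass. Of 12 listed partner proteins and sodium pump subunits, 4 were measured and 0 passed. The nearest to the threshold was Atp1b1, with an HFD minus RC of -0.62 (adjusted p = 0.0507).

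Of 22 carriers listed for their known liver roles, 18 were members, and Slc16a1, Slc3a2 and Slc13a5 were not detected on any array. Of 40 members with several detected probes, 1, Slc45a4, had probes that differed in sign by over 0.25 for HFD minus RC.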

How the data were processed

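Livers were measured on 6 Illumina bead arrays, 1 per arm and time, each with RNA pooled from 4 mice. Per the file headers, the deposited raw table holds, for each probe and array, an average bead intensity without background subtraction and a detection p-value. The authors' processed intensity values were on a linear scale, each array's median was 3.5, and the amount subtracted from each array is unknown. GenomeStudio is named in the submitters' processing notes, with no version in the sources used here. Precision is limited by the number of arrays.

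Intensities were corrected and quantile normalized with neqc of limma 3.58.1 in R 4.3.3 (offset 16, log2). Probes with a detection p under 0.01 on at least 2 arrays were kept, 14416 of 45281, and 12485 of these carried 1 gene symbol of the platform table. In all, 34885 probes had 1 symbol, 18 had several, and 10378 were not listed. The brightest probe stood for each of 8561 genes. limma (lmFit, eBayes) was fitted with arm and time as additive terms over all genes, two-sided, with Benjamini-Hochberg adjustment at 0.05. The fit left 2 residual degrees of freedom, and moderation added 4.82. The pipeline was tested on simulated data. A gene not above background on any array of a group has a lower bound, given as at least a fold: the brighter group's mean against, per array, the higher of the dim probe's own value and the lowest detected signal. The same floor was used for ranges over the arrays, chosen after seeing the data. No p-value was computed for a bound or a floored difference, and each printed p belongs to the fitted difference.

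Named members were those past the threshold, up to 3 per substrate class with the largest difference at least 1.5-fold the same way at both times, and listed liver carriers; relatives of these (Slc51a included) and members named for time of day or for detection were chosen after their values were seen. The members, classes and gene lists were chosen with earlier results of these data known, and the class of non-carriers was set after the files were read. Alternatives were normexp with an offset of 50, median scaling, the authors' processed values with a floor of 10, a stricter and no detection filter, the mean of the probes, a fit without the other factor, a trended robust eBayes, and each array left out. Median scaling on detected genes was chosen after seeing the data. Promoter sequences came from RefSeq, GRCm38.p6; 98 of the 129 members matched.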

Additional observations from a re-analysis of the deposited data

How the results depend on the processing

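For HFD minus RC, 11 members rose and 8 fell. The counts were 23 and 3 with median scaling, 5 and 1 with the authors' processed values, 2 and 1 with no detection filter, and 5 and 2 without the time term. All called members made up 20.2% against 18.8% of all genes with median scaling, 4.65% against 2.78% with the authors' values, 0.968% against 0.478% with no filter, and 5.43% against 3.52% without the time term, so under median scaling the members are near the background. The number that rose was 7 with the filter of detection on all 6 arrays, under which 5 of the 19 are not measured, and 7 with median scaling on detected genes. With 1 array left out, 1 to 9 rose and 1 to 7 fell. For NOB minus HFD, 1 member fell: 0 with normexp, with the authors' processed values, with detection on all 6 arrays, with no filter and without the time term; 2 with median scaling; and 0 to 2 with 1 array left out. The member that fell, Slc13a4, is not measured with detection on all 6 arrays. For NOB minus RC, 3 rose and 4 fell. With median scaling 8 rose, and with the authors' values 0 rose and 1 fell. With detection on all 6 arrays 2 fell, but only 4 of the 7 calls are measured there, and these 4 held. With the mean of the probes 1 fell. Without the time term 1 rose and 1 fell, and with no filter 0 rose and 0 fell. In the filtered limma fit 30 members had an unadjusted p under 0.05, with no share of all genes counted at that threshold. Where an array is left out, an arm has a lone array that is assumed to vary like the others. For ZT14 minus ZT2, limma called 0 members under each of these settings. The cause of these shifts was not tested. No called member changed sign under any of the 15 settings. No paired analysis was possible because the labels give no replicate numbers and each arm and time has 1 array. Signal over background limits the 29 members not detected on every array.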
